A study of Mus musculus with 6 samples.

Results

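The expression of 8 genes of cholesterol synthesis and its control was compared between B16F10 melanomas grown in the footpad and in the flank skin. The genes were found by their symbols among the 45777 genes listed in the deposited matrix, and all 8 passed the filter on low counts, which left 17210 genes. Hmgcs1, Idi1, Sqle, Lss, Cyp51 and Dhcr7 encode enzymes of sterol synthesis. Insig1 encodes a sterol-dependent retention protein of the endoplasmic reticulum, and Srebf2 encodes the precursor of the transcription factor SREBP2. None of the 8 encodes a receptor for lipoproteins, so they cover synthesis and its control, and uptake was read from a separate list of genes.

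Cholesterol is built from acetyl-CoA through mevalonate, isoprenoid diphosphates, squalene and lanosterol. When sterols in the endoplasmic reticulum are low, the escort protein SCAP carries the SREBP2 precursor to the Golgi, where proteases release a fragment that enters the nucleus and switches on the genes of the pathway. When sterols are high, INSIG proteins hold SCAP and its cargo back, and Insig1 is itself a target of SREBP2.

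B16F10 is a mouse melanoma cell line of C57BL/6 origin, and the tumors were grafts in the hind footpad (n = 3) or in the flank skin (n = 3). The labels give every host as a Foxn1-/- mouse of 8 weeks, a nude mouse without a thymus and short of T cells, in which other immune cells remain. The study's methods describe B16F10 grafts in Foxn1-null and also in C57BL/6J mice and do not say which hosts carried these 6, so the host rests on the labels alone. Total RNA came from removed tumors, 1 library each, with 46529649 to 66364366 reads counted on genes. The study's methods speak of isolated B16F10 cells for this RNA, but describe no step that sorted them from other cells. Nothing in the labels says that the replicates came from separate animals. A legend to the study's expression figure gives n = 3 mice for selected genes, without saying how the tumors were divided among them. The p-values thus measure only the spread between these tumors.

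Promoter sequence was taken from RefSeq for the 7 members with an entry, from 250 bases before to 50 bases after each annotated start. Of these, 4 are shown: Hmgcs1, which acts at the entry of the pathway, Idi1 and Insig1, which had the lowest fitted fold changes of the 8, and Srebf2, whose fold change was near 0. The 250 bases before the start are printed on the plus strand of GRCm38.p6 (mm10), and capitals mark 2 motifs, searched on both strands. TCACNCCAC is the core of a sterol regulatory element, the kind of site that SREBPs bind, and CCAAT, which reads ATTGG on the other strand, is the site of NF-Y, a factor that acts beside SREBPs.
Hmgcs1, chr13:119690101-119690350: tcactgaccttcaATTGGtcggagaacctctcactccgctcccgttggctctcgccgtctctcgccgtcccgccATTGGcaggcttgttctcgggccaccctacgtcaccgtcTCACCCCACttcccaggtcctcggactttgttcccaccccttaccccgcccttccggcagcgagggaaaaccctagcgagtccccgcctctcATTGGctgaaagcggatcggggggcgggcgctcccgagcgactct
Idi1, chr13:8885356-8885605: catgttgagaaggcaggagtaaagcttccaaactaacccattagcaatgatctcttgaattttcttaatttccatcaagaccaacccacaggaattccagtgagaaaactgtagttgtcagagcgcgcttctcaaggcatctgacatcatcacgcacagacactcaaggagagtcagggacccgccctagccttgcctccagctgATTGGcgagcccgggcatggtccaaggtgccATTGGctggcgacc
Insig1, chr5:28071162-28071411: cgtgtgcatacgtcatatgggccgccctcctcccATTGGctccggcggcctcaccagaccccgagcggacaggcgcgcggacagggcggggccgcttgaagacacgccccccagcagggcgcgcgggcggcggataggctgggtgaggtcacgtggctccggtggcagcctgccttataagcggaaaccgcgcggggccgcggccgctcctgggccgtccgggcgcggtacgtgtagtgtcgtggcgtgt
Srebf2, chr15:82147019-82147268: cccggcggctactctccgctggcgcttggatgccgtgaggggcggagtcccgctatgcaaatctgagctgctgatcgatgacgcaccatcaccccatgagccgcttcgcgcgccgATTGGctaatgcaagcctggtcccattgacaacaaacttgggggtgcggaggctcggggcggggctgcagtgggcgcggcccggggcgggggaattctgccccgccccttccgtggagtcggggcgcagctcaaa

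The element TCACNCCAC occurred in the promoter of 1 of the 7 members, Hmgcs1, as TCACCCCAC with its first base 137 bases before the start. By the same search it was in a promoter of 1.436% of the 27025 mouse genes with an entry and in 0 of the 12 other sterol synthesis genes with an entry. CCAAT occurred in all 7 members and in 10 of the 12 other synthesis genes, against 41.058% of all genes. Counted by window it was in 7 of the members' 9, since Dhcr7 has 3 annotated starts and 2 of their windows lack it, against 37.408% of all 32851 windows. Hmgcs1 held 4 copies, 1 of them after the start and so not printed, Idi1 held 2, and Insig1 and Srebf2 held 1 each. A GC box, GGGCGG, which Sp1-type factors bind and whose matches here share no bases with the capitals, was in all 7 members and in 11 of the 12 others, against 38.202% of all genes, and in 8 of the 9 windows, against 35.658% of all windows. A match says only that these letters are present in the window. A missing match says only that they are absent from it, and does not show that the gene lacks a site that SREBPs bind.

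Across the 6 tumors, 7 of the 8 members had a lower fitted level in the footpad than in the flank, and the median log2 fold change of footpad over flank was -0.52, against -0.00 over all genes tested. By edgeR's quasi-likelihood test 0 of the 8 reached an adjusted p under 0.05, while 1.44% of all tested genes were called lower and 3.43% higher in the footpad. At an unadjusted p under 0.05 there were 2, Idi1 and Insig1, against 10.5% of all genes on the lower side, and at an adjusted p under 0.1 there was 1, Idi1, against 4.74%. DESeq2 called 2, Idi1 (adjusted p = 0.00424) and Insig1 (adjusted p = 0.0400), against 6.08% of the genes it tested. A fitted fold change below 0 was itself found for 50.3% of all genes.

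Levels below are read counts scaled to a common library size by TMM (CPM), given for replicates 1, 2 and 3 of each site, and log2 fold changes are footpad over flank from edgeR with the standard error (SE).

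Hmgcs1 (chr13:119690351-119708260) encodes the cytosolic synthase that makes HMG-CoA, the substrate for mevalonate. It stood at 137, 208 and 159 CPM in the footpad, against 174, 253 and 311 CPM in the flank. Only footpad replicate 2 reached into the flank range, where it lay above flank replicate 1. The log2 fold change was -0.55 (SE 0.25, 95% interval -1.13 to 0.03, adjusted p = 0.213).

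Idi1 (chr13:8885606-8892396) encodes the isomerase that supplies both isoprenoid building blocks. It stood at 40.9, 70.3 and 54.1 CPM in the footpad, against 79.8, 109 and 123 CPM in the flank. Every footpad tumor lay below every flank tumor, which was so for 1 of the 8 members and for 14.9% of all tested genes. The log2 fold change was -0.91 (SE 0.24, 95% interval -1.47 to -0.36), with an unadjusted p of 0.00548 and an adjusted p of 0.0679 in edgeR. The fitted level in the footpad was 0.531 times that in the flank, and the adjusted p in edgeR became 0.0454 when footpad replicate 2 was left out but lay between 0.0648 and 0.198 when any other tumor was.

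Sqle (chr15:59315092-59331193) encodes squalene epoxidase, which adds oxygen to squalene before it is closed into a sterol. It stood at 89.9, 124 and 90.4 CPM in the footpad and at 99.4, 145 and 182 CPM in the flank, so that footpad replicate 2 again lay above flank replicate 1. Its log2 fold change was -0.49 (SE 0.24, 95% interval -1.05 to 0.08, adjusted p = 0.253).

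Lss (chr10:76531565-76557139) encodes lanosterol synthase, which closes the sterol rings. It stood at 78.0, 120 and 95.5 CPM in the footpad and at 72.7, 120 and 178 CPM in the flank, and the 2 ranges overlapped almost wholly, with the lowest and the highest value both in the flank. Between sites the log2 fold change was -0.34 (SE 0.32, 95% interval -1.08 to 0.40, adjusted p = 0.542), and it was 0.014 without flank replicate 3.

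Cyp51 (chr5:4080674-4104697) encodes the cytochrome P450 that removes a methyl group from lanosterol. It stood at 162, 315 and 217 CPM in the footpad and at 237, 376 and 526 CPM in the flank, and footpad replicate 2 overlapped with the flank. For Cyp51 the log2 fold change was -0.71 (SE 0.34, 95% interval -1.50 to 0.07, adjusted p = 0.232).

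Dhcr7 (chr7:143823167-143848410) encodes the reductase of a last step to cholesterol. It stood at 46.9, 71.8 and 52.1 CPM in the footpad and at 63.7, 78.9 and 82.6 CPM in the flank, where flank replicate 1 lay below footpad replicate 2. Its log2 fold change was -0.40 (SE 0.19, 95% interval -0.85 to 0.05, adjusted p = 0.243).

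Insig1 (chr5:28071412-28078662), the retention protein that sterols engage, stood at 149, 282 and 157 CPM in the footpad and at 245, 349 and 496 CPM in the flank. Footpad replicates 1 and 3 lay below the flank tumors, and footpad replicate 2 lay above flank replicate 1. The log2 fold change was -0.89 (SE 0.33, 95% interval -1.66 to -0.12), with an unadjusted p of 0.0293 and an adjusted p of 0.151 in edgeR.

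Srebf2 (chr15:82147269-82205379) differed least. It stood at 85.7, 89.7 and 74.6 CPM in the footpad and at 55.4, 88.5 and 104 CPM in the flank, so the footpad tumors all lay inside the flank range. Its log2 fold change was 0.01 (SE 0.23, 95% interval -0.52 to 0.54, adjusted p = 0.980), and the interval covers a difference of the size fitted for Sqle in either direction.

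**Figure D1:**
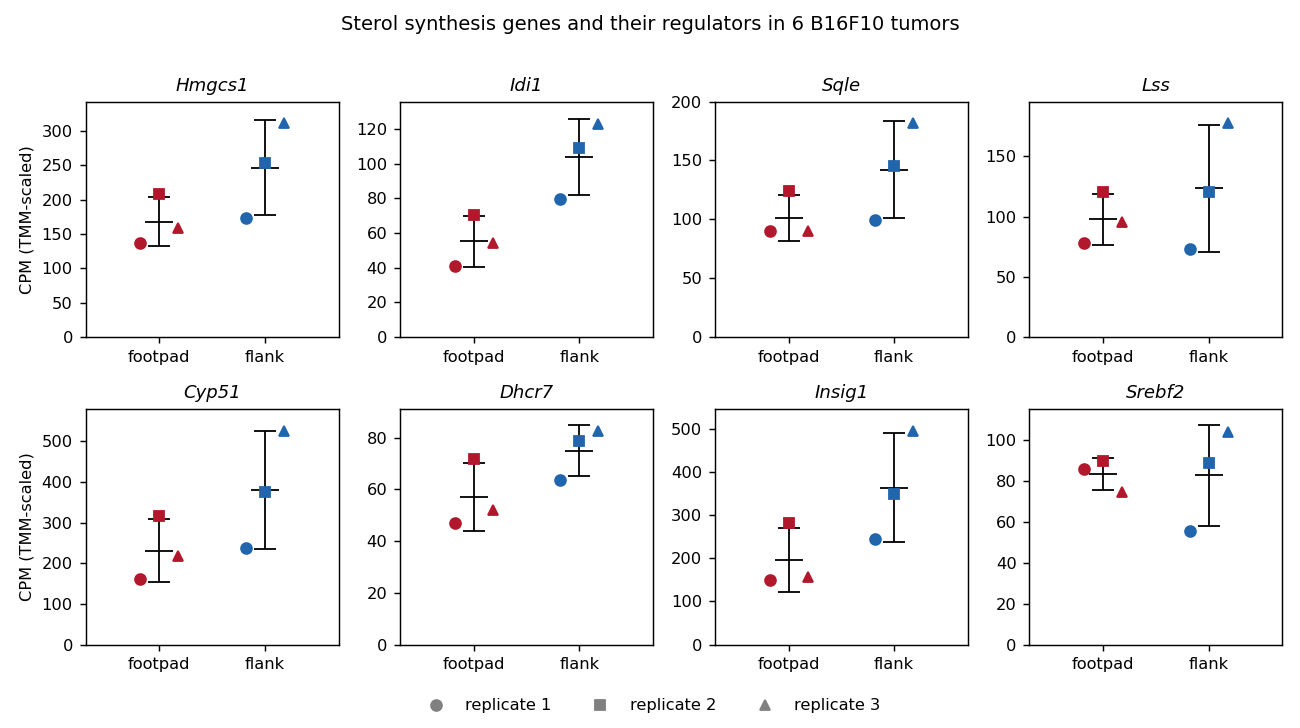
Level of each of the 8 genes in CPM (vertical axes from 0), 1 panel per gene, with the 3 footpad and 3 flank tumors as points whose shape gives the replicate and with the mean ± SD in black. Flank replicate 3 has the highest value in all 8 panels, footpad replicate 2 is the highest footpad tumor in all 8, and Idi1 alone shows no overlap between the sites.

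Per transcript length, in FPKM, Insig1 had the highest level of the 8 in both sites, at 66.8 ± 29.2 (SD, n = 3) in the footpad and 123 ± 45.6 in the flank. Cyp51 followed at 47.9 ± 18.9 and 78.5 ± 31.8 FPKM, then Hmgcs1 at 42.9 ± 12.1 FPKM in the footpad and 63.4 FPKM in the flank (tumors at 40.8, 70.4 and 78.9), and Sqle at 33.1 ± 8.24 and 46.6 ± 15.2 FPKM. Idi1 had 17.3 ± 5.66 FPKM in the footpad, below Dhcr7 at 19.5 ± 6.07, but 32.5 ± 8.47 in the flank, above Dhcr7 at 26.3 ± 5.18. Lss and Srebf2 were lowest, with 14.0 ± 3.93 and 14.8 ± 1.57 FPKM in the footpad and 17.8 ± 7.87 and 15.0 ± 4.90 FPKM in the flank. The ranges of neighbours in this order overlapped at both sites, except Sqle and Dhcr7 in the footpad. Within every single tumor, however, Insig1 lay above Cyp51 and Hmgcs1 above Sqle. Cyp51 lay below Hmgcs1 in footpad replicate 1, at 30.5 against 31.8 FPKM, and above it in the other tumors.

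The members varied together from tumor to tumor within each site. In the flank, replicate 1 was the lowest and replicate 3 the highest for 8 of 8, and in the footpad, replicate 2 was the highest for 8 of 8. Over all tested genes these places were taken by the same tumors for 40.2%, 30.4% and 39.2%. The summed level of the 8 genes was 790, 1281 and 899 CPM in the footpad tumors and 1026, 1520 and 2002 CPM in the flank tumors. Footpad replicate 2 thus lay above flank replicate 1, and the spread within a site was wide beside the difference between sites. The mean of the members' log2 CPM, each centred on its own mean, was -0.52, 0.10 and -0.35 in the footpad and -0.22, 0.33 and 0.66 in the flank, with a pooled SD within a site of 0.391.

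Leaving out a tumor changed how many members were separated between sites. Without footpad replicate 2, every footpad tumor lay below every flank tumor for 6 members, against 22.6% of all tested genes, and without flank replicate 1 for 7, against 22.3%. Leaving out any of the other 4 tumors left Idi1 alone. The median log2 fold change of the members was -0.34 without flank replicate 3 and -0.72 without flank replicate 1.

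The likeness of each member to the mean of the other 7 was described by Pearson's r over the 6 tumors, which share their libraries and their depth. It was highest for Hmgcs1 (r = 0.998), Cyp51 (r = 0.991) and Sqle (r = 0.990), followed by Insig1 (r = 0.965), Dhcr7 (r = 0.940), Idi1 (r = 0.893) and Lss (r = 0.888). Srebf2 was least alike (r = 0.533). Among the tested genes with a mean of at least 10 CPM that were most like the mean of the members were Neo1, a guidance receptor (r = 0.998), Ctnnb1, which encodes beta-catenin (r = 0.995), Gpaa1, of the complex that attaches lipid anchors to proteins (r = 0.993), and Trim37, a ubiquitin ligase (r = 0.993).

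**Figure D2:**
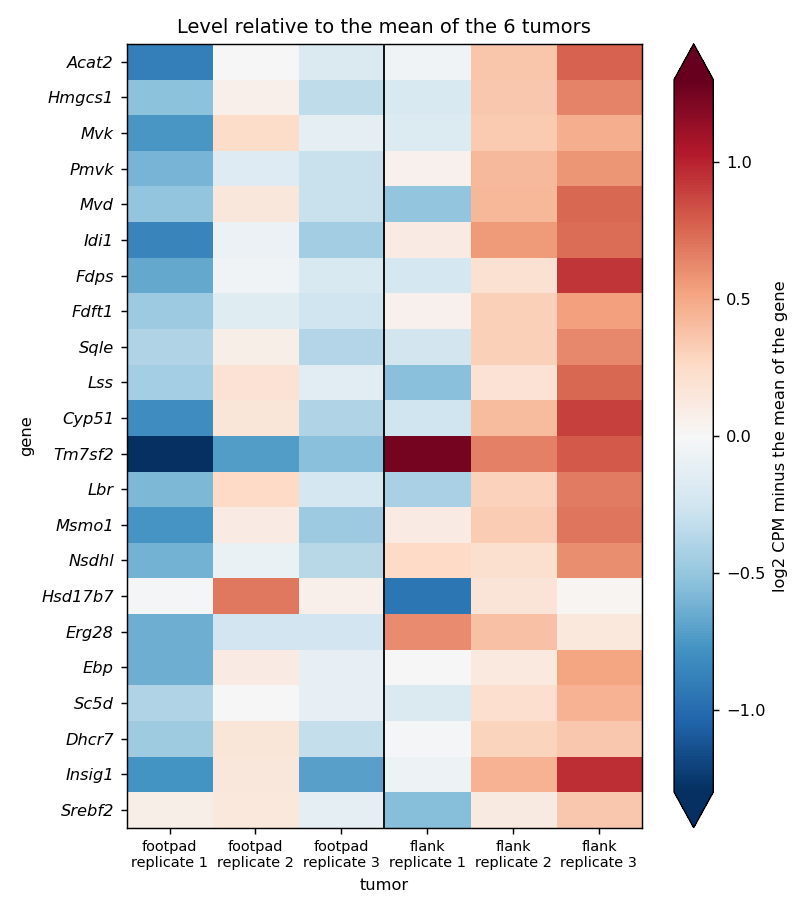
Log2 CPM of each gene minus its mean over the 6 tumors (color scale, red above and blue below, cut off at the ends of the bar), with genes as rows and tumors as columns, for the 8 members and 14 of the other sterol synthesis genes. Flank replicate 3 is red for nearly all rows and footpad replicate 1 blue, while Tm7sf2, Erg28 and Hsd17b7 have profiles of their own.

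The other 15 enzymes and partners of sterol synthesis on the list were read in the same way. Of them 14 had a lower fitted level in the footpad, the median log2 fold change was -0.63, and 8 had an unadjusted p under 0.05, all lower, against 10.5% of all genes. Every footpad tumor lay below every flank tumor for 6 of the 15, against 14.9%. After adjustment 1 of the 15 was called, against 1.44% of all genes. It was Tm7sf2, a sterol reductase (log2 fold change -1.78, edgeR adjusted p = 0.0269). Hsd17b7, which reduces a sterol ketone, was the only one with a higher fitted level (log2 fold change 0.45, adjusted p = 0.400). DESeq2 called 6 of the 15, all lower, against 6.08%. The number called by edgeR was 0 without footpad replicate 1, footpad replicate 3, flank replicate 1 or flank replicate 3, and 2 without footpad replicate 2. Within the footpad, replicate 1 was lowest for 15 of 15, and for 7 of the 8 members, against 41.8% of all tested genes. Within the flank, replicate 3 was highest for 12 of 15, against 30.4%.

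**Figure D3:**
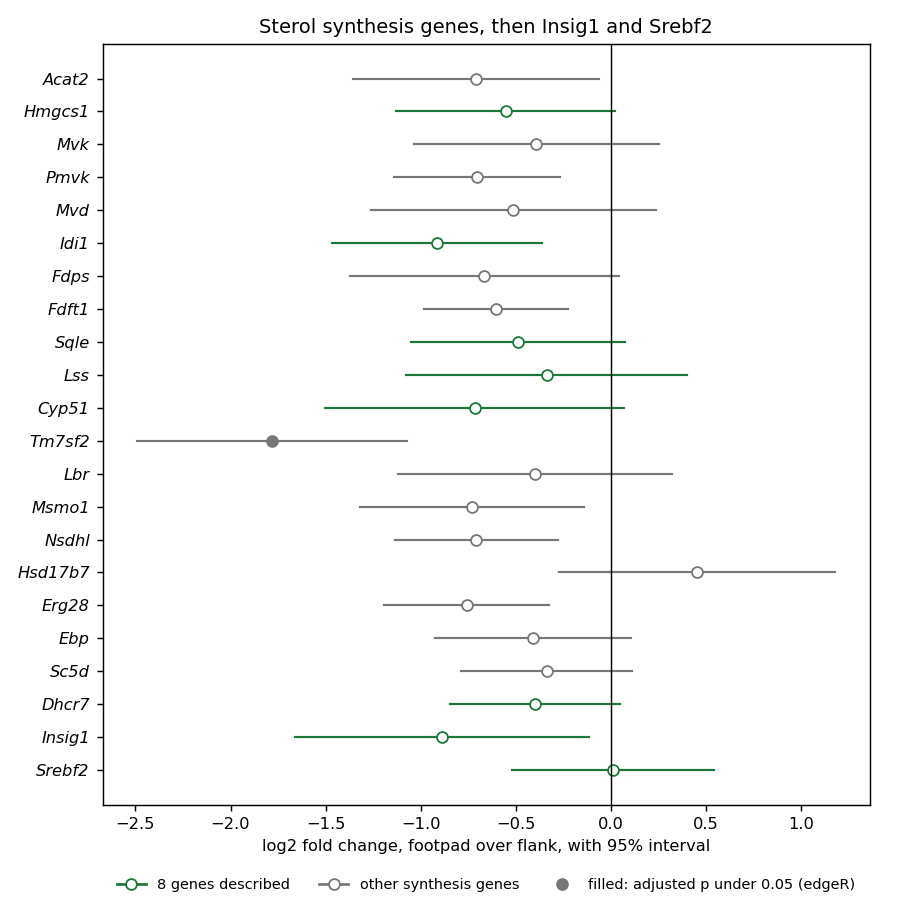
Log2 fold change of footpad over flank with its 95% interval for 20 sterol synthesis genes, then Insig1 and Srebf2, with the 8 members in green and the other genes in grey. Points lie left of 0 for 20 of the 22 genes, and the filled point is Tm7sf2, which alone had an adjusted p under 0.05 in edgeR.

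Among 10 genes of SREBP processing and sterol sensing, 6 had a lower and 4 a higher fitted level, with a median log2 fold change of -0.19. Rnf145, a ubiquitin ligase of the endoplasmic reticulum, was called lower (log2 fold change -0.50, edgeR adjusted p = 0.0477). It was 1 of the 10, against 1.44% of all genes. The lowest was Mbtps1, the first protease that cuts SREBPs (-0.56, adjusted p = 0.0514), and the highest Ube2g2, a ubiquitin-conjugating enzyme (0.29, adjusted p = 0.176). Scap, the escort, had a log2 fold change of 0.01 (adjusted p = 0.986) and Mbtps2, the second protease, of -0.16 (adjusted p = 0.584).

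Of 12 genes of sterol uptake and transport inside the cell, 7 had a lower and 5 a higher fitted level, none was called by edgeR, and 2 lower and 3 higher had an unadjusted p under 0.05, against 10.5% and 14.8% of all genes. The highest was Lrp1, a large endocytic receptor (log2 fold change 1.45, adjusted p = 0.0514), and the lowest Stard4, a sterol carrier (-0.53, adjusted p = 0.104). The median of the list was -0.08. DESeq2 called 2 of the 12 lower and 3 higher, against 6.08% and 9.82% of all genes it tested.

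Of 9 tested genes of efflux, esterification and LXR signalling, 3 had a lower and 6 a higher fitted level, with a median of 0.54 and no call by edgeR. An unadjusted p under 0.05 was found for 2 of the 9, both higher, where 14.8% of all genes were, and DESeq2 called 2, both higher, against 9.82%. Ch25h, which hydroxylates cholesterol, was highest (log2 fold change 2.22, adjusted p = 0.0827), and Nr1h3, which encodes an oxysterol receptor, was lowest (-1.41, adjusted p = 0.412).

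Fatty acid synthesis genes, the targets of the related factor SREBP1, had a lower fitted level in 13 of 14 cases, against 50.3% of all genes. Their median log2 fold change was -0.54. The 2 called, against 1.44% of all genes, were Fads1, a fatty acid desaturase (-0.75, edgeR adjusted p = 0.0386), and Thrsp, a regulator of lipogenesis (-2.22, adjusted p = 0.0485). Thrsp had few reads, with 13, 29 and 17 counts in the footpad and 156, 56 and 85 in the flank. An unadjusted p under 0.05 was found for 5 of the 14, all lower, against 10.5%. DESeq2 called 3 of the 14, all lower, against 6.08%. Acacb, an acetyl-CoA carboxylase, was highest (0.17, adjusted p = 0.617). The isoprenoid branch, which draws on the same diphosphates but makes no sterol, was spread about 0, with 4 lower and 4 higher and a median of -0.05. None of its 8 genes was called by edgeR, 1 had an unadjusted p under 0.05, lower, against 10.5% of all genes, and DESeq2 called 0. Its ends were Ggps1 (-0.36, adjusted p = 0.125) and Nus1 (0.24, adjusted p = 0.263). Over all 6 lists edgeR called 4 genes, all lower, against 1.44% of all genes. There were 0 when footpad replicate 1, footpad replicate 3 or flank replicate 3 was left out, and 2 when any of the other tumors was. The number called over all genes also changed with the tumor left out.

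The level of each member was also divided by that of Srebf2 within the same tumor. Srebf2 was chosen for this after its values were seen, so no test is given. The ratio of Idi1 was 0.477, 0.784 and 0.725 in the footpad and 1.44, 1.23 and 1.18 in the flank, and that of Insig1 was 1.74, 3.15 and 2.10 in the footpad and 4.42, 3.94 and 4.78 in the flank. The ratio of Hmgcs1 lay between 1.60 and 2.32 in the footpad and between 2.86 and 3.14 in the flank. For these and for Sqle and Cyp51, 5 of 7 members, every footpad tumor lay below every flank tumor, which held for 8.54% of all tested genes. For Lss and Dhcr7 the sites overlapped. The same separation was found for 12 of the 15 other synthesis genes. It was also found for 8 of the 14 fatty acid synthesis genes and 8 of the 10 proliferation markers described below. Srebf2 itself was lowest in flank replicate 1, at 55.4 CPM, so dividing by it raised that tumor beside the others.

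The choice of denominator mattered. With Scap it was 6 of 7 members, against 9.92% of all genes, and 13 of the 15 other synthesis genes. With Mbtps2 it was 1 of 7 members, against 5.99% of all genes, and 7 of the 15. The count of members thus fell with Mbtps2.

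**Figure D4:**
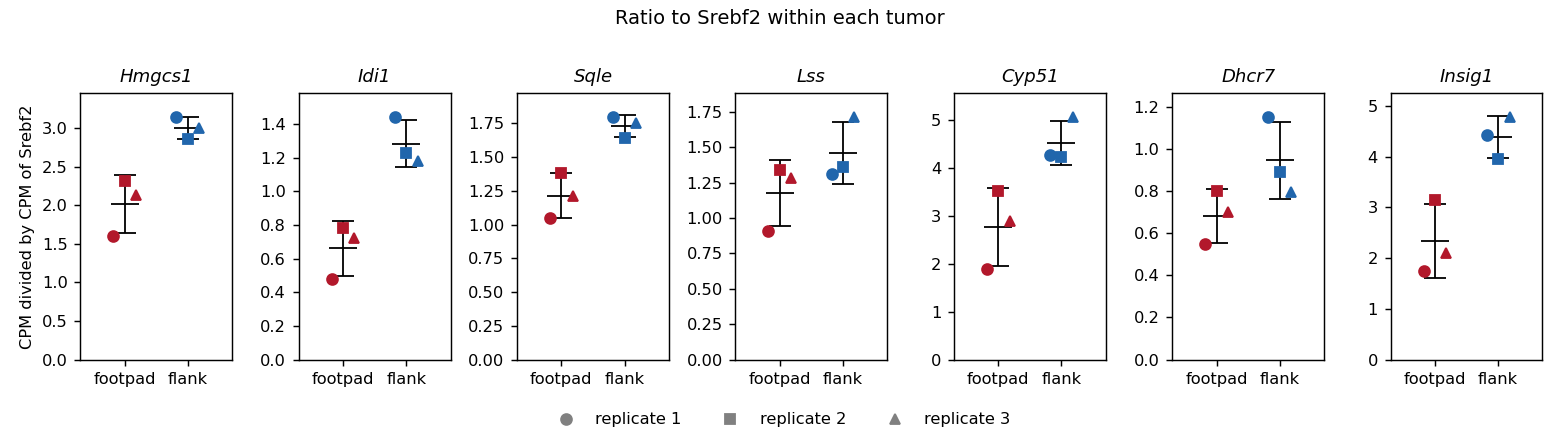
CPM of each of 7 members divided by the CPM of Srebf2 in the same tumor (vertical axes from 0), with the tumors as points whose shape gives the replicate and with the mean ± SD in black. The 3 footpad points lie below the 3 flank points for Hmgcs1, Idi1, Sqle, Cyp51 and Insig1, and the sites overlap for Lss and Dhcr7.

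The makeup of the tumors moved with the site, and its part in these values was not tested. The 10 fibroblast markers summed to 2765 to 3772 CPM in the footpad and to 95.9 to 433 CPM in the flank. Of the 10, 8 were called higher in the footpad by edgeR, against 3.43% of all genes. In flank replicates 1 and 3, 1 of them was at 0. The 10 proliferation markers summed to 1385 to 1813 CPM in the footpad and to 1874 to 2702 CPM in the flank. Of these, 10 of 10 were fitted lower, with a median log2 fold change of -0.62. None was called by edgeR, and 6 had an unadjusted p under 0.05, against 10.5% of all genes. DESeq2 called 5 lower, against 6.08%. Every footpad tumor lay below every flank tumor for 5, against 14.9%. The 10 melanocyte markers, which mark the grafted cells, summed to 10221 to 18923 CPM in the footpad and to 15024 to 25767 CPM in the flank, so that all 6 tumors carried the labelled lineage. Of those 10 markers, 9 were fitted lower in the footpad and none was called by edgeR. An unadjusted p under 0.05 was found for 1, lower, against 10.5% of all genes. Flank replicate 1, the flank tumor with the lowest member levels, had the highest melanocyte sum.

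Endothelial markers summed to 151 to 245 CPM in the footpad and 90.6 to 110 CPM in the flank. By edgeR 4 of 10 were called higher, against 3.43% of all genes, and by DESeq2 8, against 9.82%. Macrophage markers summed to 206 to 214 CPM in the footpad and 151 to 202 CPM in the flank, with 9 of 10 fitted higher. Mertk, the 1 fitted lower, held 112, 79.2 and 85.6 CPM of the footpad sums and 134, 91.9 and 89.6 CPM of the flank sums. Of the 10, edgeR called 1 higher, against 3.43% of all genes, and DESeq2 2, against 9.82%. Neutrophil markers ranged from 10.8 to 442 CPM in the footpad and from 5.46 to 40.7 CPM in the flank. None was called by edgeR, and 8 of 9 tested had an unadjusted p under 0.05, all higher, against 14.8% of all genes. DESeq2 called 4 higher, against 9.82%. Keratinocyte markers summed to 785 CPM and muscle markers to 583 CPM in footpad replicate 2, the footpad tumor with the highest member levels, while keratinocyte markers stayed between 4.78 and 35.9 CPM and muscle markers between 6.59 and 71.1 CPM in the other tumors. Of the 10 keratinocyte markers, 6 were at 0 in flank replicate 1. Neither list had a call by edgeR. An unadjusted p under 0.05 was found for 8 of 9 keratinocyte markers, all higher, and 0 of 10 muscle markers, against 14.8% of all genes. DESeq2 called 2 keratinocyte and 0 muscle markers higher, against 9.82%. Sebocyte and adipocyte markers, which mark cells rich in lipid synthesis, summed to 22.1 to 27.2 CPM in the footpad and 30.4 to 43.3 CPM in the flank. Most of each sum was Fabp4, at 24.1, 13.1 and 25.6 CPM in the footpad and 35.4, 39.2 and 27.7 CPM in the flank. Far2, Elovl3 and Awat1 were highest in footpad replicate 2, at 2.60, 1.46 and 1.72 CPM. Of the 12, 5 had enough counts to be tested, 3 fitted lower and 2 higher. None of these was called by edgeR. An unadjusted p under 0.05 was found for 2, 1 lower and 1 higher, against 10.5% and 14.8% of all genes.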

How the data were processed

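The authors trimmed the reads with Trimmomatic, checked them with FastQC 0.11.7, aligned them with HISAT2 2.1.0 to mm10, as the submitters' processing notes list, and counted them on genes. The deposited matrix holds raw counts of reads for each gene, and separate deposited tables hold FPKM, in which the authors corrected for length and library depth. The libraries came from a stranded total RNA kit. The counting program and its use of strand are not given in the sources used here, so reads of antisense partners cannot be told apart from those of a gene. The 3 annotated genes that overlap Lss, Insig1 and Srebf2 had 0 counts in every tumor.

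edgeR 4.0.16 under R 4.3.3 was the main tool (normalization by TMM, filterByExpr, glmQLFit and glmQLFTest, Benjamini-Hochberg adjustment over 17210 genes). A gene was called at an adjusted p under 0.05, with no limit on the fold. The SE was taken from the log2 fold change and its F statistic, as the former over the root of the latter. DESeq2 1.42.0 and limma 3.58.1 on log2(FPKM + 1) and log2(FPKM + 0.1), other filters and scalings, a replicate block and leaving out each tumor were alternatives. The fit was tested on simulated data. Of the genes given a true log2 fold change of -1, 9 of 49 were called, and of those given 1, 7 of 49. At -2 it was 33 of 48, and among unchanged genes 7 of 16611. A missing call thus does not show that a gene did not differ. Replicates of a site differed by more than sampling noise and were all kept. Depth was 46529649 to 66364366 counts, which leaves the spread between tumors as the main limit of precision.

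Groups were taken from the labels. The members and the gene and marker lists were chosen with earlier results of these data known. Beside the 8 members, the text names in each of the 6 pathway lists the genes called (at most 5) and those with the highest and the lowest log2 fold change, and the 5 genes most like the members, of which 1 is not reported here by name or in the figures. Scap and Mbtps2 were named after their values were seen, as denominators. Coordinates and promoters came from RefSeq on GRCm38.p6. Other genes of the pathway were not analysed here.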

Additional observations from a re-analysis of the deposited data

How the results depend on the processing

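Over 14 alternative fits, 6 to 8 of the 8 members had a lower fitted level in the footpad, and their median log2 fold change was between -0.72 and -0.34, below 0 in all 14. The number of members called was 2 with DESeq2 (Idi1 and Insig1), 1 at an adjusted p under 0.1, 0 to 1 when a tumor was left out (1 without footpad replicate 2) and 0 in the others. Insig1 ranged from -1.25 to -0.60 and Idi1 from -1.13 to -0.74. The fold change of Srebf2 turned between -0.21 and 0.21, and that of Lss between -0.61 and 0.014, when a tumor was left out. Of the 15 other sterol synthesis genes, 6 were called with DESeq2, 0 with the replicate block and 0 to 2 without a tumor. Over all 6 pathway lists, 4 genes were called, against 1.44% of all genes lower and 3.43% higher. With DESeq2 it was 18, against 6.08% and 9.82%. It was 8 with at least 10 counts in every tumor, where 302 of 14826 genes were called lower and 714 higher. With library size as the only scaling it was 2, where 186 and 508 of 17210 were called. In these settings the number called over all genes moved in the same direction. The lists held 0 calls with the replicate block and 0 to 2 without a tumor. The ratio of members to Srebf2 separated the sites for 5 to 7 members and 12 to 14 other synthesis genes without a tumor. The share of all genes was not counted for these ratios without a tumor, where fewer tumors make separation easier. With Mbtps2 as the denominator, chosen after seeing the data, it was 1 and 7, against 5.99% of all genes with no tumor left out. Without a tumor, the levels of 1 to 7 members lay lower in every footpad tumor, against 17.8% to 22.6% of all tested genes.

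Over all genes, 248 were called lower and 590 higher; these were 1044 and 1685 with DESeq2, 0 and 0 without footpad replicate 3, 5 and 26 without footpad replicate 1, 10 and 36 without flank replicate 3, 116 and 272 without flank replicate 1, 112 and 441 without flank replicate 2, and 0 and 0 with the replicate block. Same-numbered tumors of the 2 sites deviated with r = 0.0544, -0.0965 and -0.115, which gave no sign that the numbers pair the tumors. The block was therefore kept as an alternative only. The study's methods describe injection of B16F10 cells into flank and footpad at the same time. A legend to its expression figure gives n = 3 mice, so tumors of the 2 sites may share a mouse. These correlations cannot decide that, the labels do not say it, and the main fit treats the tumors as unpaired. With 3 tumors per site, members ranged up to 2.45-fold within a site. Depth does not limit these genes, which had at least 1823 counts in every tumor.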
